A study of Homo sapiens with 6 samples.

Results

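The 35 genes described here encode lysosomal enzymes, lysosomal membrane proteins, proton pump subunits and the transcription factors TFEB and TFE3. They were chosen by symbol from a list of lysosomal genes, with the added condition of a mean normalized read count of 10 or more over the 6 libraries. All 35 were found in the deposited table of 34114 genes and all 35 met the condition, as did 19575 genes in all. The lowest mean among the 35, that of MCOLN1, was 539.9 normalized counts.

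The samples were messenger RNA libraries of 3 established human acute myeloid leukaemia lines, namely MOLM-14, NOMO-1 and SKM-1. A short hairpin RNA (shRNA) with a scrambled sequence or one directed at NCAM1 (CD56, a cell surface adhesion protein) was given, and RNA was taken after 72 h. The control group and the NCAM1 knockdown group hold 3 libraries each, with a single library for every combination of line and shRNA, so that a cell line is the only replicate. MOLM-14 and NOMO-1 are known to carry the MLL-AF9 fusion and SKM-1 is not, so fusion status cannot be told apart from any other property of SKM-1.

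Lysosomes are acidic organelles that degrade material delivered by endocytosis, phagocytosis and autophagy. The vacuolar proton pump (V-ATPase) acidifies the lumen, in which cathepsins cut proteins and glycosidases, sulfatases and lipases take apart sugars and lipids. TFEB and TFE3 bind a short E-box in the promoters of many lysosomal genes, and myeloid cells, whose granules and phagosomes are related to lysosomes, are known for high lysosomal gene expression.

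Levels are given as normalized read counts, from the control to the knockdown library of a line. The target of the shRNA, NCAM1, went from 6004 to 1896 in MOLM-14, from 1163 to 312 in NOMO-1 and from 12537 to 101 in SKM-1. Every knockdown library was below its own control, by 3.17-fold, 3.73-fold and 124-fold, yet over the 3 lines its log2 difference of -3.50 ± 1.12 (SE, limma, adjusted p = 0.779) did not pass the test. Depth ran from 41916991 to 47688779 gene-assigned reads. Mitochondrial genes took 6.33% to 9.35% of them. The 6 promyelocyte granule markers summed to at least 13790.3 normalized counts and the 14 measured monocyte and macrophage markers to at least 20364 in every library. The T and NK cell, B cell, erythroid and megakaryocyte, and epithelial and stromal lists reached at most 5393, 2269, 552 and 3578. In bulk RNA, fewer cells of a type and less RNA per cell cannot be told apart.

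The 35 genes did not move in 1 direction with the knockdown. Over the 3 lines 19 had a positive and 16 a negative log2 difference, with a median of 0.11 against -0.01 over all genes tested. None was called at an adjusted p under 0.05, in a comparison that called 0.0% of all genes by limma and 0.22% by DESeq2, which also called no member. At an unadjusted p under 0.05 there were 2 of 35, ATP6V1A and ASAH1, both higher, against 4.48% of all genes. In all 3 lines 10 members were higher (14.6% of all genes were) and 7 were lower (15.9%). The 10 were the pump subunits ATP6V1A, ATP6V0D1 and ATP6V1H, the cathepsins CTSD and CTSS, the hydrolases ASAH1, ARSA, ARSB and MAN2B1, and TFEB. The 7 were LIPA, GUSB, HEXA, GAA, NPC1, LAMP1 and ATP6V1C1. The pump and the hydrolases each held members of both kinds.

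The lines differed in how far the members departed from their controls. In MOLM-14 no member was higher or lower by 1.5-fold or more, where 8.04% and 9.15% of all genes tested were. Of the 9830 genes with a mean count of 500 or more, as all 35 members have, 2.13% were higher and 3.76% lower. In NOMO-1 3 members were higher and 4 lower by that size, against 12.1% and 16.8% of all genes, or 6.6% and 11.9% of those with a mean of 500 or more. In SKM-1 12 members were higher and 6 lower, against 25.3% and 27.4% of all genes, or 21.0% and 23.7% of the higher-count genes. These are sizes and not tests, since a line has no replicate.

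**Figure D1:**
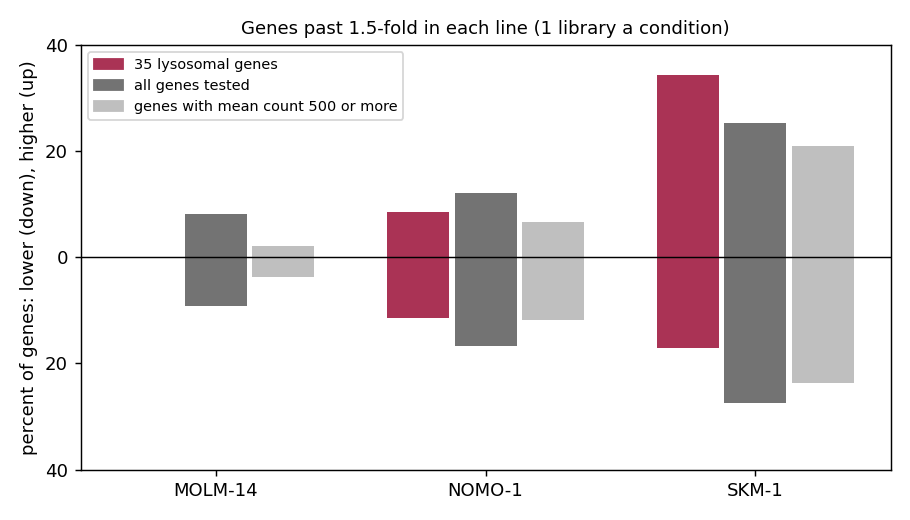
Percent of genes past 1.5-fold in the NCAM1 shRNA library of each line (x axis), with higher genes above and lower genes below the zero line of the y axis, for the 35 lysosomal genes (red), all genes tested (dark grey) and genes with a mean count of 500 or more (light grey). No red bar stands in MOLM-14, and in SKM-1 the 12 higher and 6 lower members set a red bar that is longer upward than downward, while the grey bars are of like length both ways.

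**Figure D2:**
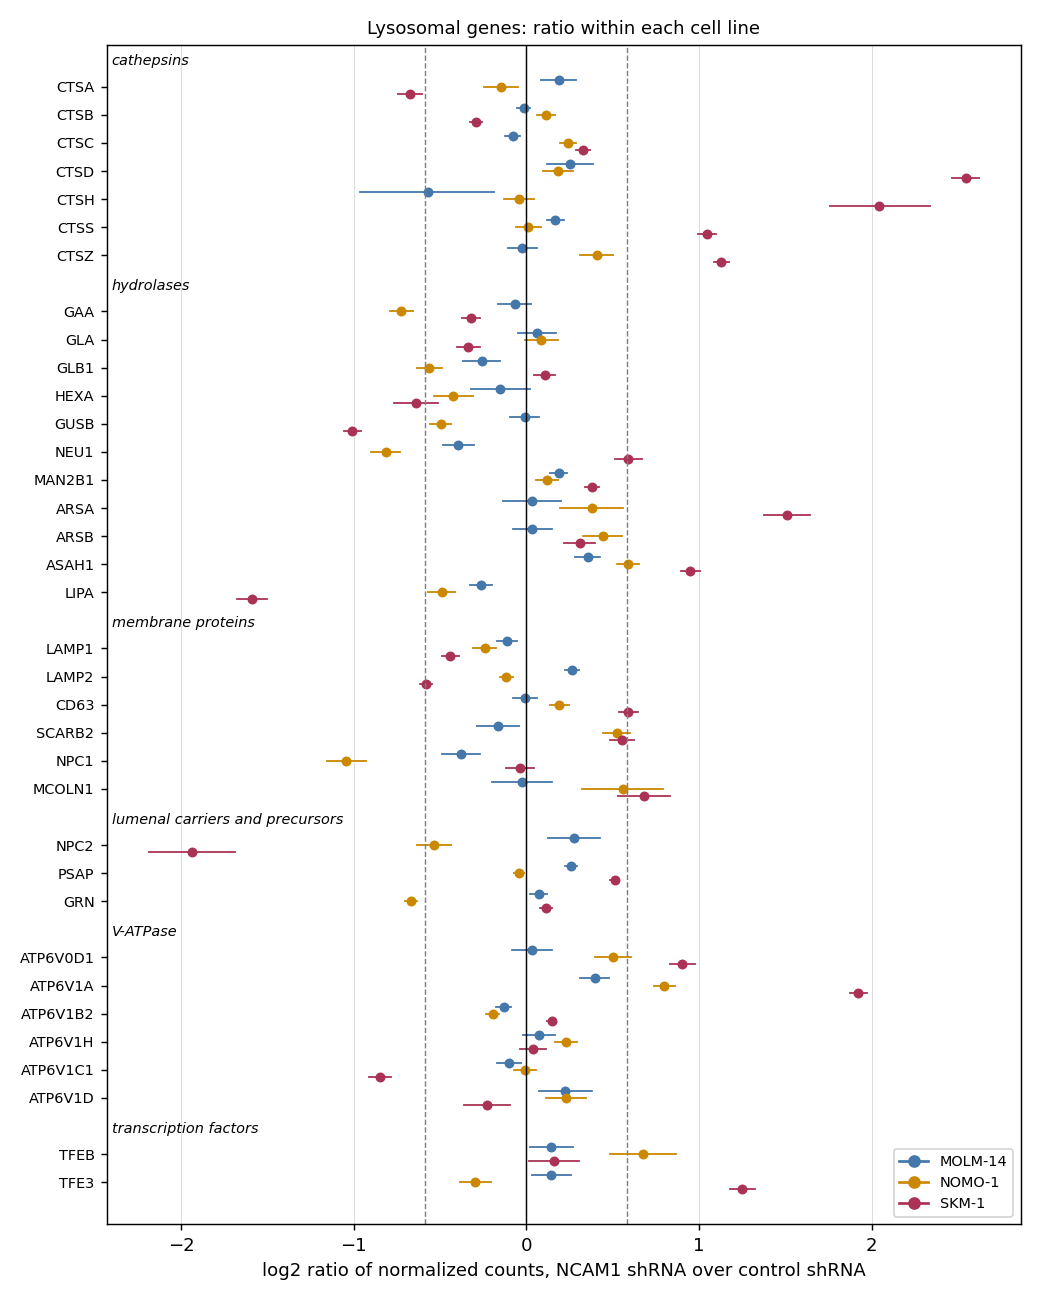
Log2 ratio of the NCAM1 shRNA over the control shRNA library for each member (y axis, by role), with 1 point per cell line, horizontal bars for the exact 95% interval of counting error and dashed lines at 1.5-fold. The MOLM-14 points lie inside the dashed lines, and the widest spread is in SKM-1, from NPC2 on the left to CTSD on the right.

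The 7 cathepsins, the proteases of the lysosome, had the highest median of the role groups over the lines (0.41) and within SKM-1 (1.05 on the log2 scale). They did not have it in the other lines, where their medians were -0.015 in MOLM-14 and 0.11 in NOMO-1. The highest there were 0.26 for the lumenal carriers and precursors in MOLM-14 and 0.23 for the V-ATPase in NOMO-1. Of the 7 cathepsins 2 were higher in all 3 lines and 0 lower. CTSD (ENSG00000117984), the main aspartic protease of the lysosome, went from 938 to 1116 in MOLM-14, from 1839 to 2086 in NOMO-1 and from 1610.5 to 9393 in SKM-1. Its SKM-1 knockdown library stood 5.83-fold higher (95% interval 5.53 to 6.15), and above the other 5 libraries, which lay between 938 and 2086. CTSD shares 52.7% of its annotated exon bases with 2 other genes, so reads of those genes may be counted with it or lost. Over the 3 lines its difference was 0.99 ± 0.53 (SE, limma, adjusted p = 0.779).

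CTSH, a cysteine aminopeptidase, went from 151 to 101 in MOLM-14, from 1981 to 1921 in NOMO-1 and from 124 to 511 in SKM-1. It was 4.13-fold higher (95% interval 3.39 to 5.06) in the SKM-1 knockdown library, yet stayed under both NOMO-1 libraries. CTSZ, a carboxypeptidase, went from 2538 to 2495 in MOLM-14, from 1479 to 1961 in NOMO-1 and from 5912 to 12923 in SKM-1, which is 2.19-fold in SKM-1. CTSS, the elastolytic cathepsin of antigen-presenting cells, went from 6258 to 7033 in MOLM-14, from 2868 to 2888 in NOMO-1 and from 4563 to 9429 in SKM-1, or 2.07-fold in SKM-1. These 4 cathepsins had their greatest distance between control and knockdown in SKM-1.

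CTSA, the protective protein that holds GLB1 and NEU1 in a complex, went the other way in SKM-1. Its count went from 1561 to 1777 in MOLM-14, from 1598 to 1443 in NOMO-1 and from 4165 to 2613 in SKM-1, so that it was 1.59-fold lower (95% interval 1.52 to 1.67) there. Of its exon bases 28.5% are shared with genes on the opposite strand, and the library kit, Illumina TruSeq RNA v2, does not mark strand. CTSB, the abundant cysteine protease, went from 12103 to 11976 in MOLM-14, from 5659 to 6124 in NOMO-1 and from 14786 to 12078 in SKM-1. CTSC, which activates granule serine proteases, went from 9086 to 8603 in MOLM-14, from 6958 to 8219.9 in NOMO-1 and from 8371 to 10512 in SKM-1. Neither of the latter reached 1.5-fold in any line.

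The 11 hydrolases divided almost evenly, with 4 higher and 4 lower in all 3 lines and a median of -0.21 over the lines. ASAH1, the acid ceramidase, went from 2929.6 to 3749 in MOLM-14, from 3220.0 to 4845 in NOMO-1 and from 3934 to 7591 in SKM-1. All 3 knockdown libraries exceeded their own controls, with log2 ratios of 0.36, 0.59 and 0.95. Its log2 difference was 0.63 ± 0.19 (SE, limma, adjusted p = 0.779), with an unadjusted p of 0.0218. ARSA, the sulfatase that degrades sulfatide, went from 632 to 646 in MOLM-14, from 411 to 534 in NOMO-1 and from 618 to 1758 in SKM-1, which in SKM-1 is 2.85-fold. MAN2B1, lysosomal alpha-mannosidase, went from 6866 to 7820.0 in MOLM-14, from 3432 to 3726 in NOMO-1 and from 8466 to 11036 in SKM-1, and 21.2% of its exon bases are shared with other genes. ARSB, the sulfatase of dermatan sulfate, went from 1358 to 1392 in MOLM-14, from 1037 to 1409 in NOMO-1 and from 1837 to 2275 in SKM-1. Both were higher in all lines by less than 1.5-fold.

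LIPA, the acid lipase that frees cholesterol and fatty acids from lipoprotein lipids, stood on the other side. It went from 4847 to 4038 in MOLM-14, from 3002 to 2135 in NOMO-1 and from 3899.7 to 1295 in SKM-1, and was 3.01-fold lower (95% interval 2.83 to 3.20) in SKM-1. GUSB, beta-glucuronidase, went from 2543 to 2523 in MOLM-14, from 4829.5 to 3421 in NOMO-1 and from 9071 to 4509.8 in SKM-1, or 2.01-fold lower in SKM-1. HEXA, the alpha subunit of beta-hexosaminidase, went from 653 to 589 in MOLM-14, from 1378 to 1027 in NOMO-1 and from 1209 to 777 in SKM-1. GAA, the acid alpha-glucosidase that breaks down glycogen, went from 1928 to 1839 in MOLM-14, from 4418 to 2675 in NOMO-1 and from 6132 to 4910.2 in SKM-1. It was 1.65-fold lower in NOMO-1, the only line where it reached 1.5-fold. For LIPA, GUSB and HEXA the distance was greatest in SKM-1 and least in MOLM-14.

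NEU1, the lysosomal sialidase, went from 2567 to 1952 in MOLM-14, from 2997 to 1704 in NOMO-1 and from 2125 to 3199.7 in SKM-1. It was 1.76-fold lower in NOMO-1 and 1.51-fold higher in SKM-1. GLB1, beta-galactosidase, went from 1649 to 1379 in MOLM-14, from 3565 to 2415 in NOMO-1 and from 3836 to 4127 in SKM-1, and was lower in MOLM-14 and NOMO-1 by less than 1.5-fold. GLA, alpha-galactosidase A, went from 1411 to 1474 in MOLM-14, from 1594 to 1693 in NOMO-1 and from 4045 to 3205 in SKM-1, all within 1.5-fold.

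Among the 6 membrane proteins 2 were lower in all lines and none was higher in all. LAMP1, an abundant glycoprotein of the limiting membrane, went from 5484 to 5079 in MOLM-14, from 3497 to 2957 in NOMO-1 and from 7001 to 5159 in SKM-1. LAMP2, its partner that also serves chaperone-mediated autophagy, went from 8904 to 10686 in MOLM-14, from 10975 to 10118 in NOMO-1 and from 15031 to 10047 in SKM-1. Neither was past 1.5-fold in any line. NPC1, which exports cholesterol from the lysosome, went from 1640.4 to 1260.0 in MOLM-14, from 1833 to 889.5 in NOMO-1 and from 2476 to 2416 in SKM-1, and was 2.06-fold lower (95% interval 1.91 to 2.23) in NOMO-1 with almost no difference in SKM-1. SCARB2, the receptor that carries glucocerebrosidase to lysosomes, went from 1253 to 1119 in MOLM-14, from 2146 to 3082 in NOMO-1 and from 2784 to 4087 in SKM-1. MCOLN1, the calcium channel of the lysosomal membrane, went from 596 to 585 in MOLM-14, from 238 to 350.3 in NOMO-1 and from 565 to 906 in SKM-1, or 1.60-fold higher in SKM-1. CD63, a tetraspanin of late endosomes, went from 3649 to 3628 in MOLM-14, from 4645 to 5295 in NOMO-1 and from 4367 to 6577 in SKM-1, or 1.51-fold in SKM-1.

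Of the lumenal carriers and precursors, NPC2 and PSAP took opposite directions in SKM-1. NPC2, the soluble cholesterol carrier that hands its cargo to NPC1, went from 715 to 864 in MOLM-14, from 1925 to 1329 in NOMO-1 and from 604 to 158 in SKM-1, and was 3.82-fold lower (95% interval 3.22 to 4.56) in the SKM-1 knockdown library. PSAP, the precursor of the saposins, went from 12639 to 15120.1 in MOLM-14, from 18124 to 17593 in NOMO-1 and from 21023 to 29947 in SKM-1. GRN, progranulin, went from 7259 to 7623 in MOLM-14, from 14575 to 9171 in NOMO-1 and from 13612 to 14714 in SKM-1, with NOMO-1 1.59-fold lower. PSAP was the highest of the 35 per length, at 5889 normalized counts per kilobase of exon averaged over the libraries. It was followed by GRN at 3032 and CTSZ at 2233, and the lowest was HEXA at 74.5, on union exon lengths that make genes with many isoforms look lower.

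The V-ATPase subunits did not move together. ATP6V1A, the catalytic A subunit of the cytosolic sector, went from 2256 to 2966 in MOLM-14, from 3222 to 5601 in NOMO-1 and from 3996 to 15143 in SKM-1. Each knockdown library was above its own control, by 1.31-, 1.74- and 3.79-fold, and the SKM-1 knockdown library was above all others. The difference over lines was 1.04 ± 0.33 (SE, limma, adjusted p = 0.779), with an unadjusted p of 0.0273. ATP6V0D1, which couples the 2 sectors, went from 1280.2 to 1309 in MOLM-14, from 1198 to 1694 in NOMO-1 and from 2168 to 4057 in SKM-1, or 1.87-fold in SKM-1. ATP6V1C1, the C subunit that links stalk and membrane sector, went from 3793 to 3536 in MOLM-14, from 3827 to 3808 in NOMO-1 and from 5770.2 to 3206 in SKM-1, and was 1.80-fold lower (95% interval 1.73 to 1.88) in SKM-1.

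The remaining subunits stayed within 1.5-fold in every line. ATP6V1B2, the B subunit paired with A in the catalytic ring, went from 9880.4 to 9022 in MOLM-14, from 12192 to 10648 in NOMO-1 and from 20144 to 22303 in SKM-1. ATP6V1H, a regulatory subunit, went from 2072 to 2179.7 in MOLM-14, from 3332 to 3907 in NOMO-1 and from 2593 to 2662 in SKM-1. ATP6V1D, part of the central rotor, went from 693 to 810.1 in MOLM-14, from 1040.0 to 1217 in NOMO-1 and from 965 to 824 in SKM-1. In SKM-1 the 6 subunits ranged from 1.80-fold lower to 3.79-fold higher.

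The transcription factors differed from each other. TFEB went from 1073 to 1186 in MOLM-14, from 338 to 540.1 in NOMO-1 and from 706 to 789.6 in SKM-1, so that the clearest distance was in NOMO-1, at 1.60-fold. TFE3 went from 1306 to 1444 in MOLM-14, from 2160.2 to 1759.8 in NOMO-1 and from 2269.9 to 5401 in SKM-1, and was 2.38-fold higher (95% interval 2.27 to 2.50) in SKM-1. The log2 differences over lines were 0.33 ± 0.22 (SE, limma, adjusted p = 0.779) for TFEB and 0.37 ± 0.34 (SE, limma, adjusted p = 0.794) for TFE3. Without the SKM-1 pair the TFE3 value was -0.075.

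**Figure D3:**
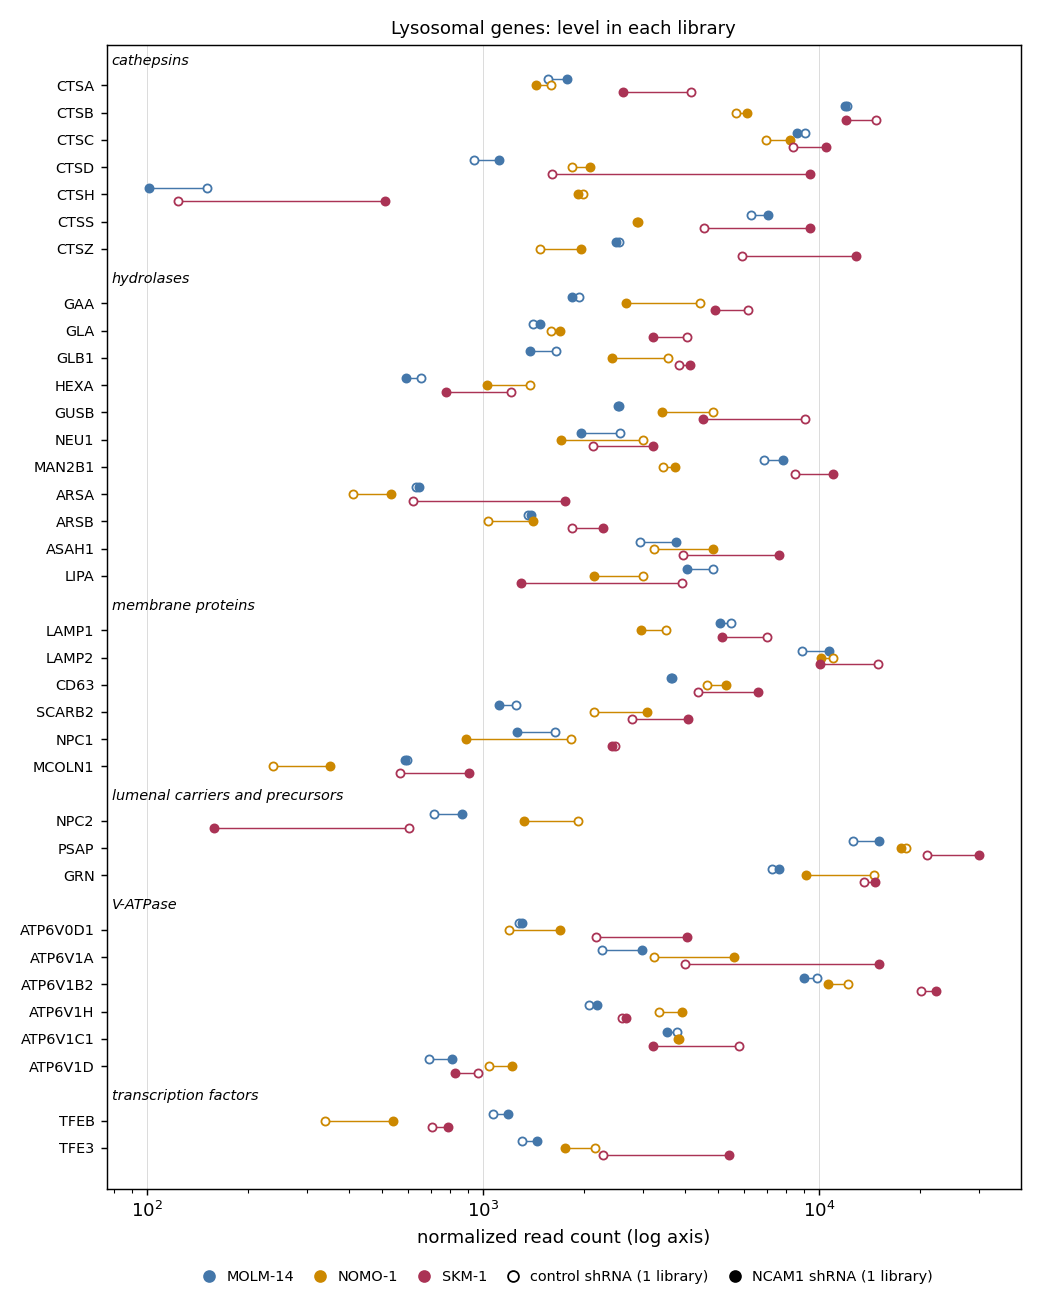
Normalized read count of each member (x axis, log scale) by role group (y axis), with open circles for the control shRNA and filled circles for the NCAM1 shRNA, 1 library each, joined within a cell line. The longest joins are those of SKM-1 for CTSD, CTSH, ATP6V1A, NPC2 and LIPA.

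SKM-1 also differed from the other lines in the myeloid markers, so their values stand beside its results. In its knockdown library the monocyte and macrophage markers summed to 242877 normalized counts, against 26726 in its control. S100A8 (302 to 73055) and S100A9 (1254 to 91617), the calprotectin subunits, made up most of the former sum. Of the 12 with a mean of 10 or more, 9 were higher and 1 lower by 1.5-fold or more in SKM-1. FCGR1A, an Fc receptor, went from 2673 to 1667 there and CSF3R, the G-CSF receptor, from 14824 to 14295. LYZ, lysozyme, went from 6865 to 3407 in MOLM-14, from 9581 to 14103 in NOMO-1 and from 2455 to 7205 in SKM-1. CD14, a monocyte receptor, went from 3.05 to 11.0 in SKM-1, a higher but still very low level. The promyelocyte granule markers summed to 1004468 in the SKM-1 control and 13790.3 in its knockdown library, with MPO, myeloperoxidase, 118-fold lower and ELANE, neutrophil elastase, 87.7-fold lower. The corresponding monocyte sums were 24455 and 20364 in MOLM-14 and 108930.2 and 78050.1 in NOMO-1, and the granule sums 119802 and 168776 in MOLM-14 and 83701 and 35467 in NOMO-1. The part of these markers in the lysosomal gene values of SKM-1 was not tested.

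Whether SKM-1 responded differently from the other 2 lines was tested on the 3 ratios, which leaves 1 residual degree of freedom. The spread of a gene comes from the MOLM-14 and NOMO-1 ratios, moderated over all genes. The lone SKM-1 ratio adds none and is assumed to vary like theirs. No member was called at an adjusted p under 0.05, and neither was any other gene (0.0%). At an unadjusted p under 0.05 there were 11 members, 8 higher and 3 lower in SKM-1, against 27.5% of all genes in both directions together. The smallest adjusted p belonged to CTSD, with a log2 difference of 2.33 ± 0.23 (SE, limma, adjusted p = 0.0559). Next were CTSH at 2.34 ± 0.40 (SE, limma, adjusted p = 0.0749), LIPA at -1.21 ± 0.24 (SE, limma, adjusted p = 0.0844) and ATP6V1A at 1.33 ± 0.27 (SE, limma, adjusted p = 0.0879). With only genes of a mean of 50 or more in the fit these 4 were called, at adjusted p-values by limma of 0.0188, 0.0371, 0.0497 and 0.0498, where 11.2% of all genes in that fit were called, a share like that of the members. With a pseudocount of 8 there was 1 member (4.19% of all genes) and on the authors' transformed values 3 (10.5%). With no filter on low values, a pseudocount of 0.5, quantile normalization or total-count scaling limma called 0 members and 0 genes.

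The lines also differed in the summed level of the lysosomal genes, whichever shRNA they carried. The 35 genes together summed to 124511 and 128915 normalized counts in the MOLM-14 control and knockdown libraries, 137532 and 130189.6 in NOMO-1, and 190779.9 and 230538 in SKM-1. As a share of each library this was 0.266% and 0.282% in MOLM-14, 0.320% and 0.315% in NOMO-1, and 0.430% and 0.527% in SKM-1. Both SKM-1 libraries were above both MOLM-14 libraries for 22 members and below for 3, where 32.6% and 30.6% of all genes were. Against NOMO-1 both were above for 19 and below for 4 (27.6% and 26.9% of all genes). MOLM-14 was above NOMO-1 for 10 members and below for 18, against 34.6% and 36.4%. The median log2 difference of the members was 0.70 for SKM-1 over MOLM-14 and 0.67 for SKM-1 over NOMO-1, where all genes had 0.02 and 0.00, and it was -0.19 for MOLM-14 over NOMO-1, where all genes had -0.01.

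Compared with MOLM-14, SKM-1 was called higher for 7 members and lower for none, at an adjusted p under 0.05 and at least a 2-fold difference, where 8.06% of all genes were called higher and 7.79% lower. Among the 7, CTSZ had the largest log2 difference, 1.80 ± 0.33 (SE, limma, adjusted p = 0.0289). CTSD differed by more, 1.93 ± 0.65 (SE, limma, adjusted p = 0.113), and was not called. The others were the hydrolases GAA (1.54), GLB1 (1.40), GUSB (1.34) and GLA (1.32), the receptor SCARB2 (1.51) and the pump subunit ATP6V1B2 (1.17). For GAA the MOLM-14 libraries held 1928 and 1839 normalized counts and the SKM-1 libraries 6132 and 4910.2. For GUSB they held 2543 and 2523 against 9071 and 4509.8. In none of the 7 did the libraries of the 2 lines overlap, which selection by the call all but fixes in advance and which adds no support. Both SKM-1 libraries were above both MOLM-14 libraries for 32.6% of all genes. GUSB was called under 5 of 9 other settings of filter, scaling and tool, and the other 6 under at least 8. The p-values measure the spread left after line and shRNA, since the 2 libraries of a line are not repeats of 1 condition. Without the MOLM-14 control library, or without its knockdown library, no member was called, and of all genes only 2.73% and 2.57% were called higher and 2.01% and 1.72% lower. Without the SKM-1 control library 13 members were called higher and 2 lower, where 3009 and 2938 of all 19575 genes were, and without the SKM-1 knockdown library 8 higher and 0 lower (11.0% and 10.6%).

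Compared with NOMO-1, SKM-1 was called higher for 4 members and lower for none (5.93% and 7.78% of all genes). On the log2 scale CTSZ differed by 2.36 ± 0.33 (SE, limma, adjusted p = 0.0151), MAN2B1 by 1.43, CTSB by 1.18 and GLA by 1.13. CTSB held 5659 and 6124 in NOMO-1 and 14786 and 12078 in SKM-1. GLA held 1411 and 1474 in MOLM-14, 1594 and 1693 in NOMO-1 and 4045 and 3205 in SKM-1. CTSZ and GLA were called in both contrasts with SKM-1, which share the SKM-1 libraries. Of 9 other settings of filter, scaling and tool, GLA was called under 7 and CTSZ, CTSB and MAN2B1 under all 9. Without the NOMO-1 control library or without its knockdown library no gene of the 19575 was called, so that the absence of member calls there says nothing particular of the members. Without the SKM-1 control library 12 members were called higher and 2 lower, where 11.6% and 14.2% of all genes were, and without the SKM-1 knockdown library 7 higher and 1 lower (9.51% and 12.6%).

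Between MOLM-14 and NOMO-1, the lines that carry MLL-AF9, 3 members were called higher in MOLM-14 (5.26% of all genes) and 1 lower (8.01%). TFEB was higher by a log2 difference of 1.40 ± 0.27 (SE, limma, adjusted p = 0.0378), with 1073 and 1186 normalized counts against 338 and 540.1 in NOMO-1. MAN2B1 and CTSB were higher by 1.03 and 1.03. Of 9 other settings, CTSB was called under 4, MAN2B1 under 5, TFEB under 7 and CTSH under 8. CTSH was lower by the widest margin of any member in any of the 3 contrasts, at -3.97 ± 0.68 (SE, limma, adjusted p = 0.0283), with 151 and 101 in MOLM-14 and 1981 and 1921 in NOMO-1. The 3 higher calls were lost when any 1 of the 4 libraries was left out, and the call of CTSH held without the MOLM-14 control library only. Calls fell over all genes as well. Without either NOMO-1 library 0 of 19575 genes were called, without the MOLM-14 control library 1.34% were called higher and 2.95% lower, and without the MOLM-14 knockdown library 1.13% and 2.6%.

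**Figure D4:**
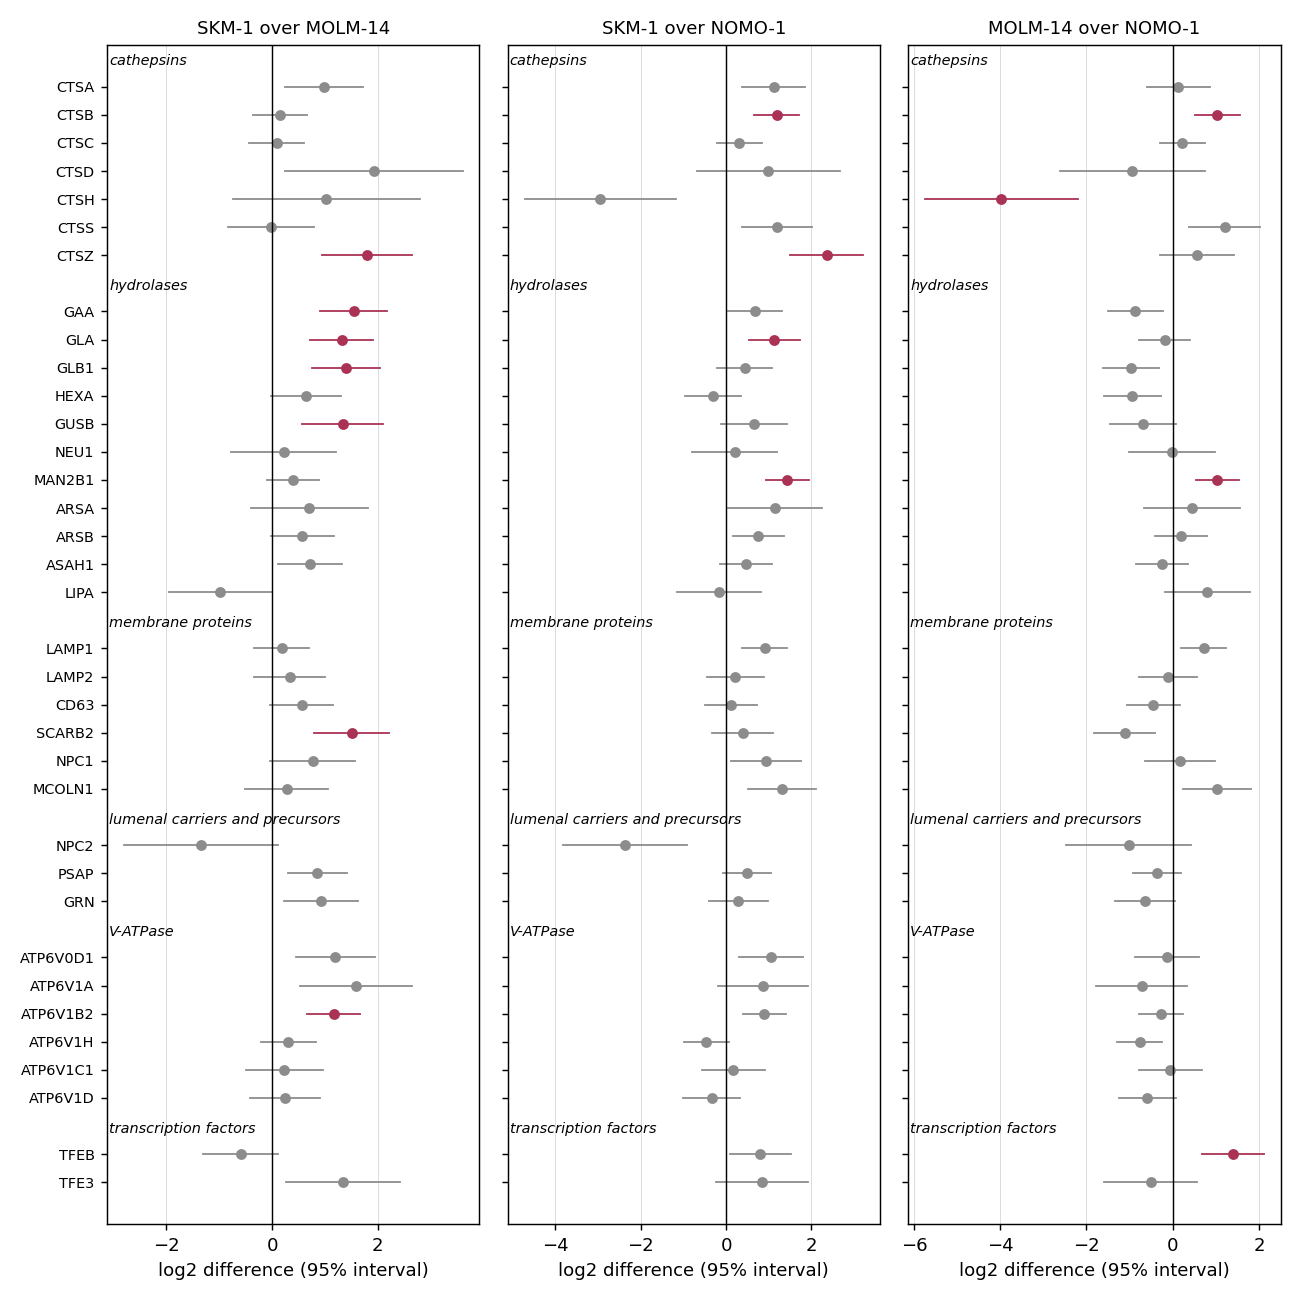
Log2 difference between cell lines for each member (y axis, by role), with 95% intervals from limma as horizontal bars and called members in red, in 1 panel per contrast. Most points lie to the right of zero in the 2 panels with SKM-1, and the CTSH point of the third panel lies farthest from zero at -3.97.

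The E-box of TFEB and TFE3 was looked for in the RefSeq promoter windows (GRCh38.p14, 250 bases before to 50 after each start) as CACGTG, with TCACGTGA as its longer form. Both read the same on either strand, and the longer contains the shorter. Of the 35 members 24 had a window and 9 of these held CACGTG (37.5%), against 8.77% of the 27305 genes in the promoter table and 28.0% of 82 other lysosomal genes with a window. TCACGTGA was found in 5 of the 24 (20.8%), against 1.18% of all genes. A gene counted if any of its windows held the motif, and genes differ in their number of windows. By window, CACGTG was in 24.3% of the 37 member windows and 7.26% of all 35116. TCACGTGA was in 13.5% and 0.98% of them. Upstream stretches of 6 of the 9 are shown, because these hold the motif nearest the start or most often, and include genes that went opposite ways. They run 5′ to 3′ on the gene's strand up to the base before the start, with CACGTG in capitals.
LAMP1: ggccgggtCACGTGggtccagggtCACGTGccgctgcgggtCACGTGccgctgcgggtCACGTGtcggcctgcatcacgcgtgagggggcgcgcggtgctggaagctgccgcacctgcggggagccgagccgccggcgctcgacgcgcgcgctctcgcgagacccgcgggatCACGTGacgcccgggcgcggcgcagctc
GAA: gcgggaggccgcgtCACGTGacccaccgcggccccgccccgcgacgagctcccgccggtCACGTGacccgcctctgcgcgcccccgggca
MCOLN1: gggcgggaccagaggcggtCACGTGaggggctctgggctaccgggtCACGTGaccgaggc
CTSA: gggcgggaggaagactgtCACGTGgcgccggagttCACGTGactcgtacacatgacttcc
CTSD: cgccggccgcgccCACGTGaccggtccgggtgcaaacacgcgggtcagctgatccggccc
ATP6V0D1: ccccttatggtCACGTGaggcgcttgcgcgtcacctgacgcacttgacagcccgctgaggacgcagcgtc

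In GRCh38.p14 these stretches are chr13:113297039-113297238 (plus strand) for LAMP1, chr17:80101491-80101580 (plus strand) for GAA, chr19:7522564-7522623 (plus strand) for MCOLN1, chr20:45891275-45891334 (plus strand) for CTSA, chr11:1763928-1763987 (minus strand) for CTSD and chr16:67481158-67481227 (minus strand) for ATP6V0D1. LAMP1 held 6 copies in its window, 5 of them in the stretch shown, while GAA, MCOLN1 and CTSA held 2 each and CTSD, ATP6V0D1, NEU1, ARSB and CD63 held 1 each. Members with the motif did not share a direction. Of the 9, CTSD, ATP6V0D1 and ARSB were higher in all 3 lines and LAMP1 and GAA lower, with 4 mixed. In SKM-1 5 of the 9 were higher by 1.5-fold or more and 1 lower, with a median log2 ratio of 0.59. Of the 15 members with a window but without the motif 3 were higher and 3 lower, with a median of 0.11. Of all genes 25.3% were higher and 27.4% lower in SKM-1, and of those with a mean of 500 or more 21.0% and 23.7%. The medians with and without the motif were -0.0084 and -0.011 in MOLM-14 and 0.18 and -0.044 in NOMO-1. By 1.5-fold or more in NOMO-1, 0 members with the motif were higher and 2 lower, and 1 without it was higher and 2 lower. Members without a window are in neither group. Among them ATP6V1A, CTSS, ARSA and ASAH1 were higher by that size in SKM-1, and HEXA and ATP6V1C1 lower. A link between motif and ratio was not tested. A match is a description of the letters and says nothing of binding.

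The other lysosomal genes were divided as well. Of 101 further genes in 6 lists 96 were tested, 49 had a positive and 47 a negative log2 difference over the lines, the median was 0.01 and limma called none. By 1.5-fold or more, 6 were higher and 1 lower in MOLM-14 (8.04% and 9.15% of all genes). In NOMO-1 9 were higher and 24 lower (12.1% and 16.8%), and in SKM-1 33 higher and 20 lower (25.3% and 27.4%). The balance of these genes in NOMO-1 was thus the reverse of that in SKM-1, while all genes leaned lower in both. The hydrolase FUCA1, alpha-fucosidase, had 1.14 ± 0.46 (SE), or 0.49 without the SKM-1 pair, and the peptidase TPP1 -0.53 ± 0.21. HGSNAT, which acetylates heparan sulfate fragments, was lower in all lines at -0.42 ± 0.16. Of the pump, the membrane subunit ATP6V0E1 had 0.50 ± 0.17, the accessory protein ATP6AP2 0.32 ± 0.18 and ATP6V1G2, a stalk subunit, 0.92 ± 0.36. Each was above control in the 3 lines, though ATP6AP2 hardly differed in MOLM-14. Its log2 ratio was 0.0075 there, 0.54 in NOMO-1 and 0.40 in SKM-1. None of the genes named here had an adjusted p under 0.779 by limma.

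Genes that place TFEB under mTOR control at the lysosome were also mixed. The mTOR complex subunit RPTOR had -0.50 and the Ragulator subunits LAMTOR3 and LAMTOR1 0.59 and 0.58. Of the autophagy genes, UVRAG had -0.66, ULK1 -0.40 and ATG5 0.50. Of the membrane proteins, ABCA2 had -0.64 and LAPTM4A -0.59, and of the sorting genes SORT1 had -0.83, SUMF1 0.43 and GNPTAB -0.21. The two-pore channel TPCN1 had -1.05, which comes from SKM-1 alone, where its log2 ratio was -3.21, against 0.05 for MOLM-14 and 0.0042 for NOMO-1. Each first value is a log2 difference over the 3 lines, and none passed the test. Without the SKM-1 pair it was 0.028 for TPCN1, -0.023 for GNPTAB, -0.29 for SORT1, 0.15 for SUMF1, 0.18 for LAMTOR1, 0.35 for LAMTOR3, -0.33 for ABCA2 and -0.36 for LAPTM4A.

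Some genes outside the 35 separated the lines more widely than any member did. CTSL, cathepsin L, held 619 and 353 normalized counts in the SKM-1 control and knockdown libraries and 214 and 349.7 in MOLM-14, but 2 and 1 reads in NOMO-1. The pump subunit ATP6V0E2 held 901 and 349.8 in SKM-1 and 1 and 0 reads in NOMO-1. SKM-1 was called higher than NOMO-1 for both, with adjusted p-values by limma of 0.00325 and 0.00900, and no fold is given because NOMO-1 lay under the floor of 3 reads. CTSF, cathepsin F, held 905 and 19.3 in SKM-1 and 0 reads in both NOMO-1 libraries, and was not called.

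The sorting receptor SORL1 was lower in SKM-1 than in NOMO-1, at a log2 difference of -6.73 ± 0.63 (SE, limma, adjusted p = 0.00582), and RRAGD, a Rag GTPase, higher by 5.88 ± 0.48 (SE, limma, adjusted p = 0.00451). TPCN1 was lower in SKM-1 than in MOLM-14, at -4.15 ± 0.87 (SE, limma, adjusted p = 0.0405). TFEC, the macrophage relative of TFEB, was higher in MOLM-14 than in NOMO-1 by 4.15 ± 0.72 (SE, limma, adjusted p = 0.0292), as was SORT1 by 3.47, and ATP6V1G2 was lower at -3.90. The metal transporter SLC11A1 and the autophagy genes WIPI1 and SQSTM1 had the widest contrasts of the rest of their lists, between -1.87 and 1.86, and were not called.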

How the data were processed

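The deposited signal values are read counts per gene after division, by the authors, by a size factor for each library. A second deposited table holds log2 values from a transformation by the authors. The name of that transformation, the strand setting and the annotation were not given in the sources used here. Per the submitters' processing notes, genome build hg19, STAR, HTSeq 0.6.1p1, bcl2fastq 1.8.4 and DESeq2 1.12.4 were used. Every value was a whole number of reads at a tolerance of 0.001 (100% of values), which recovered depths of 41916991 to 47688779 reads.

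Tests were run with limma 3.58.1 (R 4.3.3, trend, two-sided) with a block for cell line, on log2(normalized count + 1) of 19575 genes, Benjamini-Hochberg adjusted. Fold changes on this scale understate those of low genes. The 2 libraries of a line deviated together from the group means (correlations across genes 0.850, 0.863 and 0.710). Contrasts between lines were taken from that fit, with a 2-fold minimum. The p-values measure the spread between these libraries, and for the SKM-1 response that between the MOLM-14 and NOMO-1 ratios only. Ratios within a line have exact conditional 95% intervals that cover counting error only. Exon lengths and overlaps came from GENCODE v29 (GRCh38), and promoters from RefSeq. Alternatives included edgeR 4.0.16 and DESeq2 1.42.0 on recovered reads. The test was also run on simulated data, but no outcome is given here and no conclusion is drawn from that run. It does not show whether the test finds changes that differ in size between lines. NCAM1, lower in every line by unequal amounts, was not called.

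The members, lists and tests were chosen with earlier results of these data known. Named were NCAM1, every member, and LYZ, CD14, MPO and ELANE among the markers. In each further list the 3 genes of smallest p in the knockdown comparison and the 2 of largest line contrast were named. The markers S100A8, S100A9, FCGR1A and CSF3R were named outside this rule.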

Additional observations from a re-analysis of the deposited data

Results flagged for a closer look

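NEU1, the lysosomal sialidase, moved past 1.5-fold in opposite directions in 2 lines. Its log2 ratio of knockdown over control was -0.81 in NOMO-1 and 0.59 in SKM-1, a distance of 1.40 between lines with 1 library per condition each. The difference between these 2 lines was not tested. Against MOLM-14 and NOMO-1 together, the SKM-1 ratio was higher by 1.20 ± 0.29 (SE, limma, adjusted p = 0.108).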

How the results depend on the processing

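No member was called in the knockdown comparison under any of the 13 alternatives run. These include the fit with no replicate block (0 called) and those without each pair. DESeq2 called 0.22% of all genes and every other alternative 0, so the absence of calls says nothing particular of the members. The median of the members, 0.11 with all lines, ranged from 0.08 to 0.13 without 1 pair. Without 1 pair the sign of 10 members turned, with ranges of -0.41 to 0.020 for CTSA, -0.15 to 0.049 for CTSB, -0.31 to 1.00 for CTSH, -0.14 to 0.075 for GLA, -0.60 to 0.10 for NEU1, -0.35 to 0.073 for LAMP2, -0.30 to 0.091 for GRN, -0.16 to 0.0079 for ATP6V1B2, -0.0014 to 0.23 for ATP6V1D and -0.075 to 0.70 for TFE3.

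SKM-1 over MOLM-14 called 7 members higher, and 3 with no filter on low values and 11 by DESeq2. Of all genes 8.06%, 3.29% and 11.5% were called higher. Shares of all genes with 1 library left out stand with each contrast in the Results. Leaving out 1 library gave 0 to 13 higher, 0 to 2 lower and a median of 0.51 to 0.82. SKM-1 over NOMO-1 called 4 higher, and 8 by DESeq2 (5.93% and 8.46% of all genes). It called 1 lower under total-count scaling (8.26%), and 2 under quantile normalization (7.66%) and DESeq2 (10.2%). Leaving out 1 library gave 0 to 12 higher and 0 to 2 lower. MOLM-14 over NOMO-1 called 3 higher, 0 with no filter and 5 by DESeq2 (5.26%, 2.16% and 7.44% of all genes). By edgeR, on the authors' transformed values and under quantile normalization or total-count scaling it called 1 higher (4.09%, 4.9%, 6.17% and 4.49%). It called 1 lower, 0 with no filter, and 2 under total-count scaling and DESeq2 (8.01%, 3.93%, 8.92% and 10.9%). Leaving out 1 library gave 0 higher, 0 to 1 lower and a median of -0.28 to -0.16. That median was -0.32 under total-count scaling, which moved the median of all genes to -0.14, -0.22 under quantile normalization, -0.16 on the transformed values, and -0.19 by edgeR and DESeq2.

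The SKM-1 response called 1 member with a pseudocount of 8 (493 higher and 327 lower among all genes), 4 with a mean of 50 or more (903 and 766) and 3 on the transformed values (1114 and 947). Its median of 0.31 was 0.28 under total-count scaling, 0.24 under quantile normalization and 0.28 on the transformed values. At 2-fold, NOMO-1 had 0 members higher and 1 lower (4.06% and 7.42% of all genes) and SKM-1 7 and 3 (15.7% and 16.5%). The cause of these shifts was not tested. With 1 library per line and condition, differences between lines and between cultures cannot be told apart.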
